A study of Canis lupus familiaris with 13 samples.

Results

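The skeletal muscle sarcomere genes are 32 genes of the contractile apparatus of striated muscle and of the calcium handling, energy metabolism and transcriptional control around it. They were chosen by gene symbol, and every probe set (the group of short probes that reads 1 transcript) whose platform symbol was among the 32 was taken. A total of 29 genes had a named probe set, with 79 probe sets of the 42924 tested. Muscle creatine kinase CKM, the perinatal myosin MYH8 and the slow troponin I gene TNNI1 were not analysed here, since no probe set carried their symbol.

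The samples were primary soft tissue sarcomas of dogs, cancers of connective tissue that had received no treatment, and their total RNA was read on a canine array from Affymetrix. There were 5 tumours of the metastatic group (MET1 to MET5) and 8 of the non-metastatic group (NM1 to NM8), which stayed free of metastasis for at least 1 year. The labels give no tumour subtype or site and do not say that the tumours came from separate dogs, so each p-value measures only how far these samples spread. All values below are log2 intensities, in which a difference of 1 is a doubling of the signal.

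A sarcomere is built of thick filaments of myosin that slide along thin filaments of actin, anchored at the Z-disc and held in register by titin. Calcium released from the sarcoplasmic reticulum binds the troponin complex on the thin filament and starts contraction. Fast and slow fibres use different members of the myosin and troponin families, and the transcription factors MYOD1 and MYOG switch these genes on as myoblasts mature.

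Sample medians lay between 6.71 and 6.94. Bacterial transcripts that are spiked into the RNA as labelling controls had an even signal in all 5 metastatic tumours and in NM5 to NM8. They had no signal in NM1, NM3 and NM4. In NM2 their 3′ probes read 3.54 above their 5′ probes, whereas this gap was 0.959 or less elsewhere. Group differences are therefore given over all 13 tumours and again within the 9 with even signal, called the spike-in set. For ACTB, the control for RNA quality, the 3′ probes read above the 5′ probes by 1.96 ± 0.59 (SD, n = 5) in metastatic tumours and by 1.47 ± 0.92 (SD, n = 8) in non-metastatic tumours, a gap that widens as RNA degrades. The number of arrays limits the precision of every value.

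Most of the spread of the sarcomere genes lay in 1 tumour. MET5 had the highest of the 13 values in 46 of the 79 probe sets (58.2%), against 8.06% of all probe sets. In MET5, 30 probe sets (38%) lay at least 1 log2 above their own 13-tumour median, where 3.25% of all probe sets did. At least 2 log2 above the median were 24 probe sets of 14 genes (30.4%), where 0.72% of all probe sets were. Each of the other 12 tumours had at most 5 probe sets at least 1 log2 above the median and at most 2 at least 2 log2 above it.

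NM8 was a smaller case, and by these counts not the only one. It had 4 probe sets at least 1 log2 above the median (5.06%), against 1.81% of all probe sets. Of these, 2 (2.53%), in ACTA1 and MYH2, were at least 2 log2 above it, against 0.363%. MET4 had the same counts of 4 and 2, NM2 had 5 and 0, and NM7 had 3 and 1. Of the 24 probe sets far above the median in MET5, 21 were above their median in NM8 as well. These 24 were picked by their MET5 values, and other tumours, such as NM2, were also above the median in some of them. The share over all probe sets is not given here, so the 21 are not shown to be particular to NM8. On the linear scale the excess of NM8 over the median was a median of 2.39% of that of MET5 over these 24 probe sets, with quartiles of 1.44% and 3.61%, and reached 11.8% at MYBPC1 and 11.3% at MYH2. NM2 had the highest value in 15 probe sets (19%), but 21.6% of all probe sets were highest there. In bulk tissue, more muscle cells and more of these transcripts per cell cannot be told apart.

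**Figure D1:**
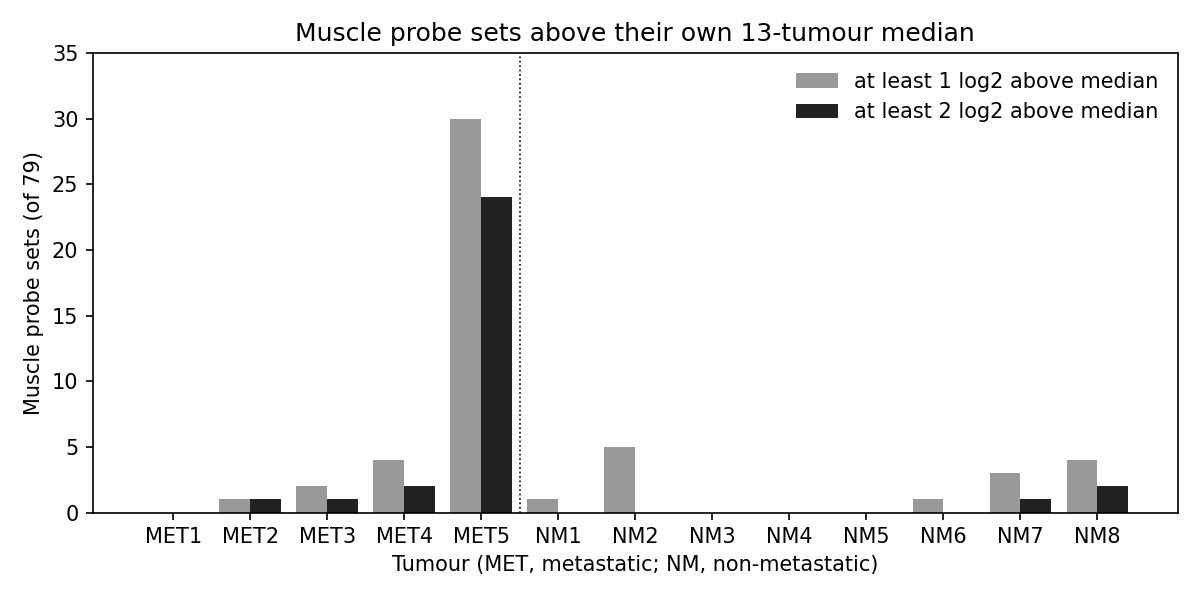
Number of the 79 muscle probe sets lying at least 1 log2 (grey) or 2 log2 (black) above their own 13-tumour median in each tumour, metastatic tumours on the left and non-metastatic tumours on the right. MET5 had 30 and 24 such probe sets, and no other tumour had more than 5 and 2.

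Genes with several probe sets did not give 1 answer, since the probe set of highest mean was often the flattest. Each gene is therefore tested at its probe set of highest mean, and described by tumour at its probe set of widest range, a choice made after the values were seen that raises such counts by construction. At the widest probe set, 17 of the 29 genes lay at least 1 log2 above their median in MET5, and at the probe set of highest mean 11 did. By role, 7 of 9 thick filament genes, 7 of 7 thin filament and troponin genes and 2 of 4 Z-disc and titin genes were among the 17. Of the 4 metabolic genes 1 was among them, of the 3 calcium handling genes 0, and of the 2 transcription factors 0. The 11 at the probe set of highest mean were 6 thick filament genes and 5 thin filament and troponin genes. None of the Z-disc and titin genes or metabolic genes was among the 11, so their part depended on the choice of probe set.

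**Figure D2:**
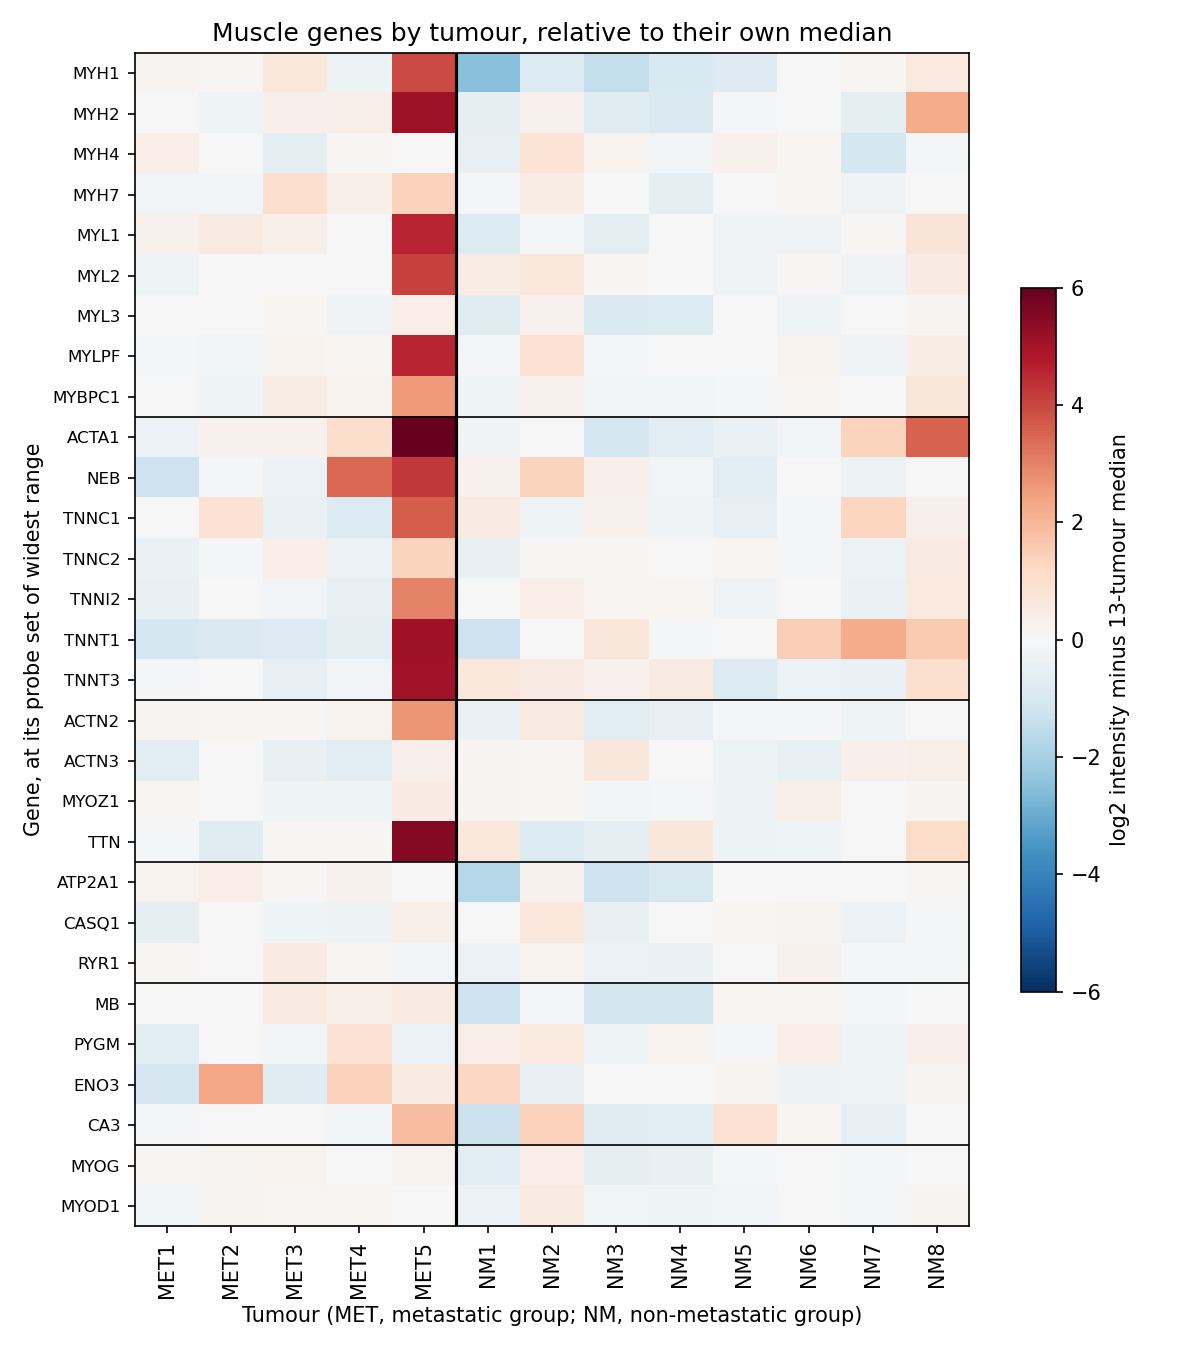
Log2 intensity minus the 13-tumour median for the 29 measured genes, each at its probe set of widest range, in rows grouped by role, with 5 metastatic tumours left of the heavy line and 8 non-metastatic tumours right of it. Red marks values above the median and blue values below it. The MET5 column is red for 17 genes by at least 1 log2, from myosin to titin, and pale for calcium handling and transcription factors.

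Among thick filament genes, MYH2, the heavy chain of fast type IIA fibres, had 4.20, 3.94, 4.5, 4.53 and 9.28 in MET1 to MET5. In the non-metastatic tumours MYH2 lay between 3.32 and 6.44 with a median of 3.91, and NM8 gave the 6.44. MET5 stood above every other tumour and NM8 above the remaining 11, while the other 4 metastatic tumours lay inside the non-metastatic range. The MYH2 difference was 1.13 ± 0.79 (SE; limma adjusted p = 0.389) and 0.13 without MET5.

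MYH1, the heavy chain of fast type IIX fibres, showed the same tumour at its widest probe set, with 4.42, 4.36, 4.91, 3.98 and 8.25 in MET1 to MET5 and 1.75 to 4.84, median 3.47, in non-metastatic tumours. Its probe set of highest mean did not, with 6.22 in MET5, below the 6.35 to 6.79 of MET1 to MET4. MYH4, the heavy chain of fast type IIB fibres, reached 3.06 in MET5 at its widest probe set, inside the 2.05 to 3.91 of the non-metastatic tumours. MYH7, the slow and cardiac heavy chain, had 7.14, 7.16, 8.35, 7.68 and 8.69 in MET1 to MET5 and 6.77 to 7.77, median 7.30, in non-metastatic tumours. MET3 and MET5 thus lay above all 8 non-metastatic tumours at this probe set. Of the 5 MYH7 probe sets, only this 1 was at least 1 log2 above the median in MET5, and 2 were highest there. At each of the others MET3 lay below the highest non-metastatic value.

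Of the light chains, which stabilise and tune the myosin head, 3 set MET5 apart from every other tumour. MYLPF, the fast regulatory light chain, had 5.52, 5.5, 5.86, 5.78 and 10.25 in MET1 to MET5, against 5.45 to 6.56 with a median of 5.66 in non-metastatic tumours. MYL1, the fast essential light chain, had 5.80, 6.07, 5.88, 5.5 and 10.08 in MET1 to MET5, against 4.69 to 6.28 with a median of 5.40 in non-metastatic tumours. At its probe set of highest mean MYL1 had 6.23, 6.46, 6.59, 6.30 and 9.49 in MET1 to MET5, against 5.72 to 6.76 with a median of 6.27 in non-metastatic tumours, so both probe sets put MET5 highest. MYL2, the slow and ventricular regulatory light chain, had 5.76, 6.0, 6.0, 5.99 and 10.10 in MET1 to MET5, against 5.77 to 6.62 with a median of 6.10 in non-metastatic tumours. In all 3 genes the other 4 metastatic tumours lay within or close to the non-metastatic range. The group difference of MYLPF was 0.78 ± 0.65 over all tumours and -0.13 ± 0.20 without MET5 (SE; limma adjusted p = 0.464 and 0.716).

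MYL3, the slow essential light chain, was nearly flat, with 7.85 in MET5 at its widest probe set and at most 7.74 in non-metastatic tumours. MYBPC1, the slow myosin-binding protein C that links thick to thin filaments, had 5.22, 4.97, 5.66, 5.45 and 7.78 in MET1 to MET5, against 4.94 to 5.88, median 5.18, in non-metastatic tumours. NM8 gave the 5.88, the highest non-metastatic value.

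**Figure D3:**
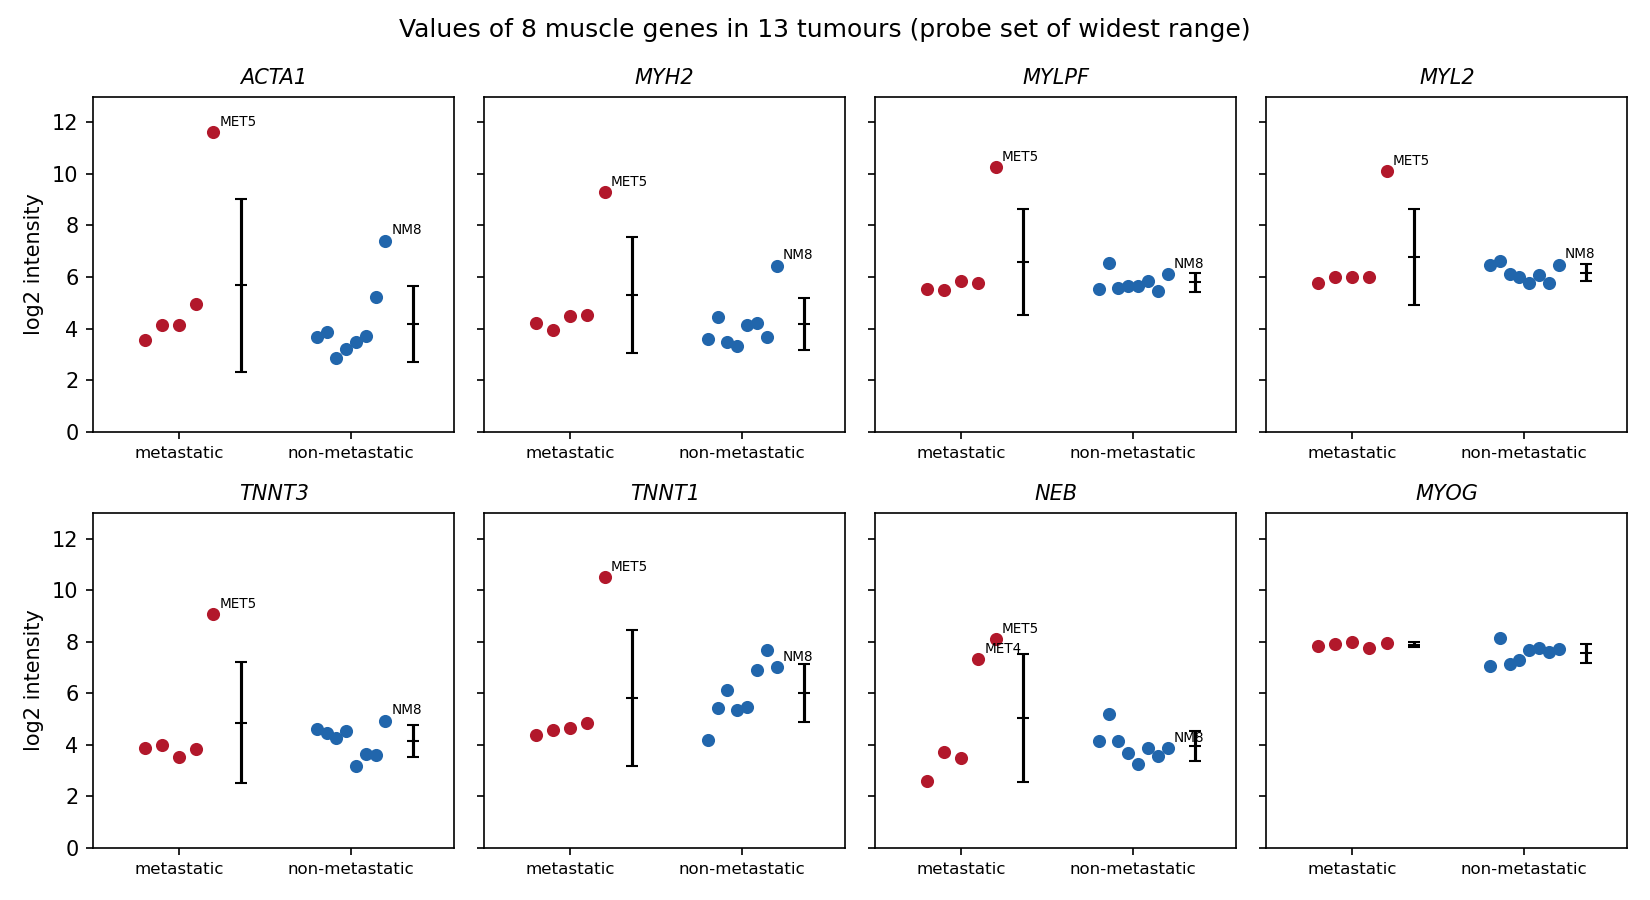
Log2 intensity of 8 muscle genes in each tumour, at the probe set of widest range, metastatic tumours (red, n = 5) left of non-metastatic tumours (blue, n = 8); the bar beside each group is the mean ± SD. MET5 stands apart in 7 genes, MET4 joins it in NEB, NM8 is second in ACTA1 and MYH2, and MYOG has no tumour that stands apart.

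On the thin filament, ACTA1, the skeletal muscle actin, had the widest span of all the genes at its widest probe set. It had 3.55, 4.12, 4.12, 4.94 and 11.63 in MET1 to MET5, against 2.84 to 7.41 with a median of 3.69 in non-metastatic tumours. MET5 was highest, NM8 came next at 7.41 and then NM7 at 5.21. The group difference at this probe set was 1.49 ± 1.18 (SE; limma adjusted p = 0.445) and 0.00 without MET5.

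The ACTA1 probe set of highest mean gave another order. It had 8.86, 8.29, 11.44, 9.35 and 11.30 in MET1 to MET5, against 7.08 to 10.25 with a median of 8.49 in non-metastatic tumours. The group difference at this probe set was 1.41 ± 0.59 over all tumours and still 1.05 ± 0.59 without MET5 (SE; limma adjusted p = 0.1684 and 0.3275). MET3 was highest there and NM2 highest among the non-metastatic tumours, while NM8 was unremarkable at 8.75. ACTA2, the smooth muscle actin, ran in parallel with it. The x_at ending of its name marks probes that can bind related transcripts, an ending that a further ACTA1 probe set shares. ACTA2 had 11.28, 10.69, 13.04, 11.43 and 12.02 in MET1 to MET5, and 8.95 to 12.71, median 10.56, in non-metastatic tumours. Across the 13 tumours this ACTA1 probe set and ACTA2 had r = 0.925 and rho = 0.955 (permutation p = 1e-05 for both, the smallest these resamples can give). The values were r = 0.960 without MET3 and MET5, the 2 farthest, and r = 0.911 in the spike-in set (n = 9, exact permutation p = 0.000485). The widest ACTA1 probe set and ACTA2 had r = 0.282 (permutation p = 0.352), and the other x_at probe set of ACTA1 and ACTA2 had r = 0.250 (permutation p = 0.403), so the ending alone did not go with the parallel. These 3 pairs were chosen after their values were seen, and the part of ACTA2 signal in the ACTA1 value was not tested.

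The troponins carried the same tumour across fibre types. TNNT3, the fast troponin T, had 3.89, 4.0, 3.52, 3.84 and 9.06 in MET1 to MET5, against 3.16 to 4.94 with a median of 4.37 in non-metastatic tumours. TNNI2, the fast inhibitory subunit, had 4.78, 5.24, 5.04, 4.75 and 8.20 in MET1 to MET5, against 4.83 to 5.80 in non-metastatic tumours. At its probe set of highest mean TNNI2 was nearly flat, with 10.38 in MET5, 10.01 to 10.25 in MET1 to MET4 and 9.74 to 10.16 in non-metastatic tumours. TNNC1, the calcium-binding subunit of slow and cardiac muscle, had 5.96, 6.85, 5.58, 5.16 and 9.59 in MET1 to MET5, against 5.48 to 7.24 with a median of 6.06 in non-metastatic tumours. TNNC2, the calcium-binding subunit of fast muscle, was less far apart, with 7.38 in MET5, 5.65 to 6.43 in the other metastatic tumours and 5.58 to 6.54 in non-metastatic tumours. Without MET5, the differences of TNNC1, TNNC2 and TNNT3 turned negative at the probe set of highest mean, as those of MYL2 and MYLPF did, and none of the 5 passed the test in either fit.

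NEB, nebulin, the ruler of the thin filament, was high in 2 tumours. Its widest probe set had 2.61, 3.72, 3.49, 7.31 and 8.11 in MET1 to MET5, against 3.24 to 5.18 with a median of 3.87 in non-metastatic tumours. Another probe set repeated the pattern with 8.13 in MET4 and 8.79 in MET5, against 4.09 to 4.68 in the other metastatic tumours and 3.70 to 4.76 in non-metastatic tumours. Only 4 of the 79 probe sets were at least 1 log2 above the median in MET4 (5.06%), against 3.53% of all probe sets, and 2 of the 4 were these. The other 6 nebulin probe sets had no such gap, so the MET4 value rests on 2 of 8 probe sets. The difference at that other probe set was the largest among the 79, at 1.78 ± 0.70 (SE; limma adjusted p = 0.151).

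Titin (TTN), the spring that spans the half-sarcomere, was read by 20 probe sets, of which 7 were at least 1 log2 and 6 at least 2 log2 above the median in MET5, and 12 were highest there. The brightest of them in MET5 had 6.99, 7.12, 6.95, 6.90 and 10.97 in MET1 to MET5, against 6.71 to 7.56 in non-metastatic tumours. The next had 5.42 to 5.71 in MET1 to MET4 and 10.59 in MET5, against 4.71 to 6.28 in non-metastatic tumours, where NM8 gave the 6.28. The TTN probe set of highest mean was flat, with 8.13, 8.18, 8.16, 8.20 and 8.28 in MET1 to MET5 and 7.37 to 8.33, median 8.10, in non-metastatic tumours. Of the other Z-disc genes, ACTN2, which crosslinks actin at the Z-disc, had 6.41, 6.35, 6.31, 6.45 and 8.89 in MET1 to MET5 and 5.61 to 6.81 in non-metastatic tumours. At its probe set of highest mean ACTN2 had 7.29 in MET5, inside the 6.31 to 7.70 of the non-metastatic tumours. ACTN3, its counterpart in fast fibres, reached 4.99 in MET5 and 5.40 in a non-metastatic tumour, and MYOZ1, a Z-disc partner of calcineurin, reached 6.84 in MET5 and 6.71 in a non-metastatic tumour.

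The calcium handling genes did not follow. ATP2A1, the calcium pump of fast fibres, had 8.27 in MET5, below the 8.36 to 8.66 of MET1 to MET4, and 6.56 to 8.53 in non-metastatic tumours. RYR1, the calcium release channel, had 6.13 in MET5, 6.29 to 6.77 in MET1 to MET4 and 5.86 to 6.52 in non-metastatic tumours. CASQ1, the calcium-storing protein of the sarcoplasmic reticulum, had 5.85 in MET5, 4.91 to 5.49 in MET1 to MET4 and 5.06 to 6.13 in non-metastatic tumours. MET5 thus lay inside the non-metastatic range in all 3.

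The metabolic genes each had their own pattern. ENO3, the muscle enolase of glycolysis, had 6.46, 9.80, 6.76, 8.87 and 8.02 in MET1 to MET5, against 6.99 to 8.74 with a median of 7.49 in non-metastatic tumours. MET2 and MET4 were highest and NM1 came next, so ENO3 did not single out MET5. PYGM, the muscle glycogen phosphorylase, was highest in MET4 at 7.13, with 5.93 in MET5 and 6.0 to 6.86 in non-metastatic tumours. CA3, the carbonic anhydrase of slow fibres and fat cells, had 7.26 in MET5 at its widest probe set, 5.23 to 5.44 in the other metastatic tumours and 4.10 to 6.76 in non-metastatic tumours. MB, the oxygen store myoglobin, had 7.34, 7.29, 7.87, 7.65 and 7.84 in MET1 to MET5, against 6.07 to 7.41 with a median of 7.26 in non-metastatic tumours.

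The 3 lowest MB values were those of NM1, NM3 and NM4, the tumours without spike-in signal, which averaged 1.19 below NM5 to NM8. The MB difference was 0.71 ± 0.27 over all tumours and 0.25 ± 0.14 within the spike-in set (SE; limma adjusted p = 0.141 and 0.361). Over the module, 28 of the 79 probe sets (35.4%) had NM1, NM3 and NM4 all below NM5 to NM8, against 23.7% of all probe sets. The part of the spike-in sets in the group differences was not tested beyond the fit within the set.

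The transcription factors did not single out MET5. MYOG, myogenin, had 7.83, 7.92, 7.97, 7.74 and 7.93 in MET1 to MET5, against 7.05 to 8.15 with a median of 7.64 in non-metastatic tumours. MYOD1 had 5.79, 6.12, 6.03, 6.08 and 5.95 in MET1 to MET5, against 5.59 to 6.48 with a median of 5.85 in non-metastatic tumours. NM2 was highest in both genes, and MYOG averaged 0.53 lower in NM1, NM3 and NM4 than in NM5 to NM8. The MYOG difference was 0.33 ± 0.17 and that of MYOD1 0.08 ± 0.15 (SE; limma adjusted p = 0.249 and 0.758).

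Seen by fibre type, the fast and slow forms were high in MET5 together. At the widest probe set 7 of 10 fast fibre genes and 4 of 5 slow fibre genes were at least 1 log2 above their median there. At least 2 log2 above it were 6 and 3. With the probe set of highest mean these counts were 5 and 4 at 1 log2, and 4 and 3 at 2 log2. In the gene order of the RefSeq assembly UU_Cfam_GSD_1.0, MYH4, MYH1, MYH2 and the embryonic heavy chain MYH3 follow each other as coding neighbours. At the widest probe sets MYH1, MYH2 and MYH3 were high in MET5 and MYH4 was not. MYH1 was high at 1 of its 3 probe sets. The other MYH4 probe set was highest in MET5 by little, at 5.80 against 5.17 to 5.60 in non-metastatic tumours. All MYH4 values lay below 7.16, the highest value of spike-in probe sets in tumours without spike-in.

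The test between the groups called 0 of the 79 probe sets (limma, Benjamini-Hochberg over all 42924 probe sets), where 4.9% of all probe sets passed the threshold of 0.05. At an unadjusted p under that threshold there were 13 (16.5%), all higher in metastatic tumours. Of all probe sets, 23.7% were under it in either direction and 12% were under it and higher. The exact permutation test over samples gave 16 before and 0 after adjustment, and its share of all probe sets is not given here. The smallest adjusted p was 0.101, at a TTN probe set. Without NM2, that TTN probe set passed, with a limma adjusted p of 0.0433, and the share of all probe sets that passed there is not given. The groups overlapped in all 79 probe sets, whereas they did not in 2.63% of all probe sets. The median difference was 0.33 over the 79 and 0.05 over all probe sets, and 64 of the 79 (81%) were positive, against 55.1% of all.

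Within the spike-in set 0 of the 79 were called, against 2.78% of all probe sets, and 6 (7.59%), all higher, had an unadjusted p under the threshold, against 20.2% in either direction and 9.12% higher. There the median difference was 0.20. Without MET5, 1 probe set of that set of tumours passed, TNNT1, at -2.14 (limma adjusted p = 0.0478). The share of all probe sets that passed in that fit is not given. Over the other 12 tumours, without MET5, the count was again 0, against 2.29%, with 8 at the unadjusted threshold, against 20.4%, and the median difference was 0.13. At the probe set of highest mean 26 of 29 differences were positive over all tumours, and 5 turned negative without MET5. The probe sets of 5 genes (ACTN3, ATP2A1, MYH7, MYOZ1 and TTN) differed in the sign of the difference.

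**Figure D4:**
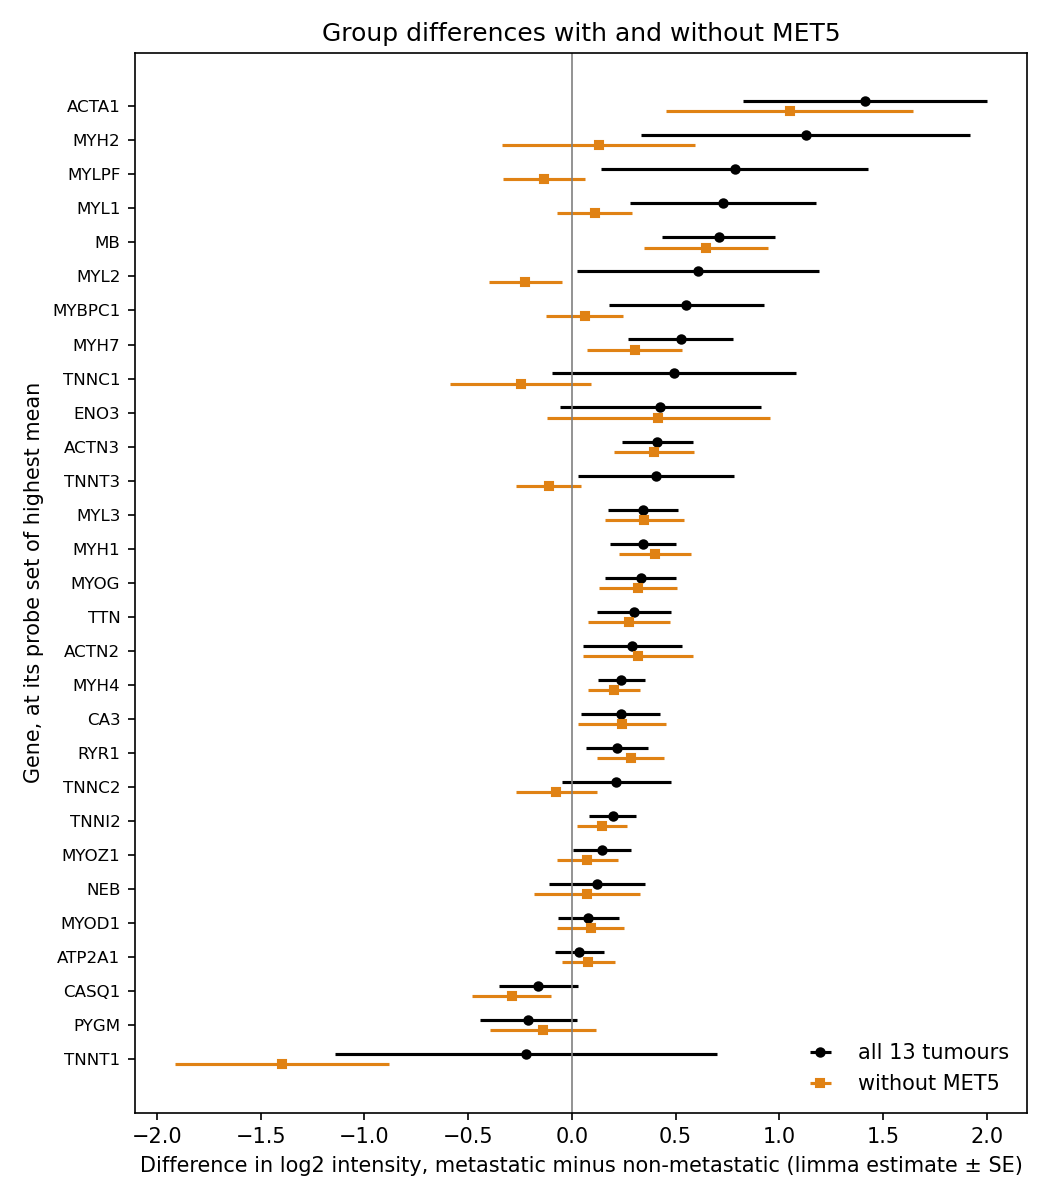
Difference in log2 intensity, metastatic minus non-metastatic, for the 29 genes at their probe set of highest mean, as limma estimates ± SE over all 13 tumours (black) and without MET5 (orange). No difference passed the test in either fit; MYH2 was 1.13 and 0.13, MYLPF 0.78 and -0.13, and TNNT1 -0.22 and -1.40.

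Whether the genes moved together apart from MET5 was read from 5 pairs with ACTA1, which took the place of the unmeasured CKM, at the probe sets of highest mean. Over 13 tumours ACTA1 and MYH7 had r = 0.905 and rho = 0.801 (permutation p adjusted over the 5 pairs 0.0004 and 0.00263). ACTA1 and MB had r = 0.791 and rho = 0.804 (adjusted permutation p = 0.00503 and 0.00263), and ACTA1 and MYOG had r = 0.767 and rho = 0.828 (adjusted permutation p = 0.00503 and 0.00263). MYOD1 had r = 0.529 and rho = 0.537 (0.0798 and 0.0763, adjusted permutation p), and TNNT3 had r = 0.500 and rho = 0.141 (0.101 and 0.646).

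Without MET3 and MET5, the 2 tumours farthest from the ACTA1 median, r was 0.739 for MYH7, 0.751 for MB, 0.848 for MYOG, 0.776 for MYOD1 and 0.248 for TNNT3. Within the spike-in set r was 0.967 for MYH7, 0.949 for MB and 0.669 for MYOG (n = 9, adjusted exact permutation p = 0.00258, 0.00258 and 0.0841). It was 0.123 for MYOD1 and 0.610 for TNNT3 there. The ACTA1 probe set in these pairs is the one that followed ACTA2. With the widest probe sets none of the 5 pairs passed over all 13 tumours: TNNT3 had r = 0.866 with ACTA1 (adjusted permutation p = 0.0742) and -0.355 without MET5 and NM8. Within the spike-in set that pair passed by r, at 0.956 (n = 9, adjusted exact permutation p = 0.0223), and not by rho, at 0.611 (adjusted exact permutation p = 0.435).

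TNNT1, the slow troponin T, was low in 4 metastatic tumours and high in MET5 at 1 of its 2 probe sets, the one described here. It had 4.37, 4.59, 4.67, 4.86 and 10.51 in MET1 to MET5, against 4.20 to 7.67 with a median of 5.80 in non-metastatic tumours. MET5 was above all other tumours, and MET1 to MET4 were below all non-metastatic tumours but NM1. The difference was -0.22 ± 0.92 over all tumours and -1.40 ± 0.51 without MET5 (SE; limma adjusted p = 0.899 and 0.159). Within the spike-in set without MET5 it was -2.14, with a limma adjusted p of 0.0478. The other TNNT1 probe set did not repeat this. It had 4.16, 4.27, 4.20, 3.67 and 3.72 in MET1 to MET5, against 3.99 to 4.65 in non-metastatic tumours.

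The gene beside TNNT1 in the assembly is TNNI3, the cardiac troponin I, which is not one of the 32. TNNI3 had 5.72, 5.77, 5.36, 5.85 and 6.96 in MET1 to MET5, against 6.45 to 9.82 with a median of 7.92 in non-metastatic tumours. It fell in metastatic tumours, by 2.22 on the log2 scale with an SE of 0.55 over all tumours and by 3.22 within the spike-in set (limma adjusted p = 0.0360 and 0.0109). Among the 8 non-metastatic tumours TNNT1 and TNNI3 had r = 0.906 and rho = 0.905 (exact permutation p = 0.00265 and 0.00456), and r = 0.926 without NM1 and NM7 (n = 6, exact permutation p = 0.00833). The pair was chosen after its values were seen, and NM5 to NM8 and the tumours without spike-in signal are too few for a value within each. MET5 lay off this relation, with TNNT1 at 10.51 and TNNI3 at 6.96.

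**Figure D5:**
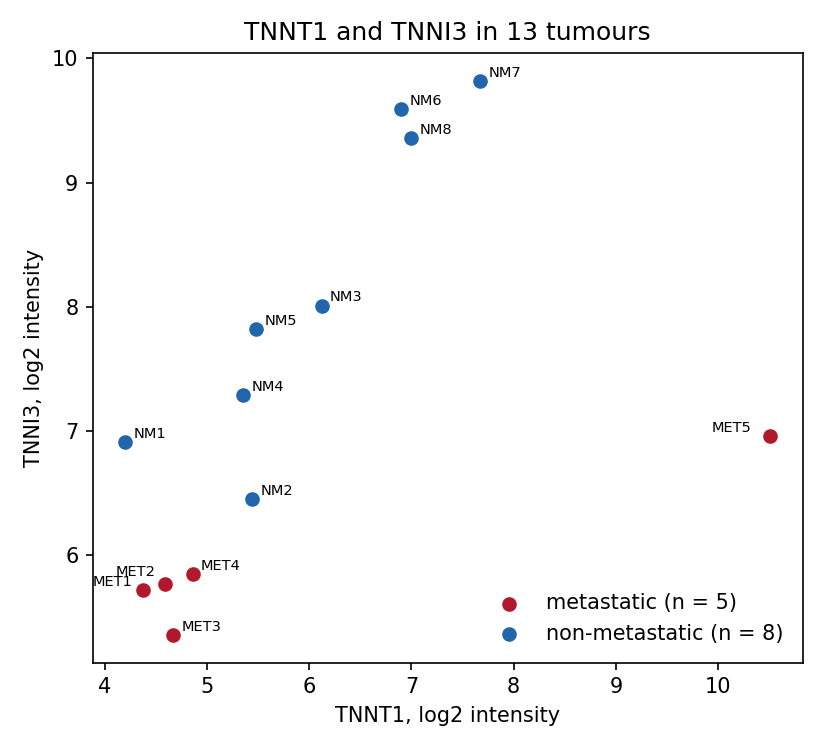
Log2 intensity of TNNT1 (horizontal) and its coding neighbour TNNI3 (vertical) in each tumour, metastatic in red and non-metastatic in blue. MET1 to MET4 lie at the low end of both genes, NM6 to NM8 at the high end, and MET5 has 10.51 for TNNT1 with 6.96 for TNNI3.

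Some other genes of skeletal muscle, not among the 32, were high in MET5 as well. Of 35 listed, 31 had a probe set, and at the widest probe set 11 lay at least 1 log2 above the median in MET5 and 14 were highest there. At the probe set of highest mean 6 lay at least 1 log2 above it, where 3.25% of all probe sets did. Others did not follow: TCAP was highest in NM5 and MYOM1 in NM2. PVALB had 9.96 in MET5, inside the 8.77 to 10.17 of the non-metastatic tumours. The genes named next are among the raised ones. MYH3, the embryonic heavy chain, had 2.54, 2.36, 2.75, 2.96 and 10.40 in MET1 to MET5, against 2.80 to 4.49 in non-metastatic tumours. KLHL41, which stabilises nebulin, had 7.73 in MET5 against at most 4.58 in non-metastatic tumours. SMPX, a small muscle protein, had 8.24 in MET5 and 3.87 to 4.52 in the other metastatic tumours, against 4.06 to 5.96 in non-metastatic tumours, where NM8 gave the 5.96. The intermediate filament gene DES had 9.15 in MET5, against 5.53 to 7.44 in non-metastatic tumours.

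In the group test 1 of the 83 probe sets of that list passed (1.2%), against 4.9% of all probe sets. TRDN, triadin, which holds the calcium release channel to calsequestrin, was higher in metastatic tumours at that probe set, with 4.56, 4.91, 4.33, 4.47 and 5.02 in MET1 to MET5 and 2.96 to 4.26, median 3.48, in non-metastatic tumours. The groups did not overlap, and the difference was 1.15 ± 0.21 (SE; limma adjusted p = 0.00988) and 1.07 within the spike-in set (limma adjusted p = 0.0206). All 13 TRDN values at this probe set lie inside the 2.63 to 7.16 that spike-in probe sets gave in tumours without spike-in. TRDN had 9 probe sets and the other 8 did not pass: 6 of the 9 differences were positive and 3 negative. At the TRDN probe set of highest mean the difference was -0.28 ± 0.19 (SE; limma adjusted p = 0.385) and -0.46 within the spike-in set (limma adjusted p = 0.119). The genes of smallest p at the probe set of highest mean, COX6A2, FBXO32, CHRNA1 and STAC3, did not pass. Of 10 muscle stem cell and myoblast genes 8 were measured, 0 were at least 1 log2 above the median in MET5, and 0 of their 18 probe sets passed. NCAM1, the gene of widest range among them, was high in MET4, at 9.45 at its widest probe set. There the other metastatic tumours had 4.84 to 6.07 and the non-metastatic tumours 4.35 to 6.09. At its probe set of highest mean NCAM1 had 8.28 in MET4, inside the 7.94 to 8.41 of the non-metastatic tumours.

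Markers of other tissues moved with MET5 in part. Of the 9 heart genes 7 were measured, and ACTC1 and TNNT2, also known from developing skeletal muscle, were the 2 at least 1 log2 above the median in MET5, at 10.14 and 8.68 at the widest probe set. The summed signal of the heart list (log2 of the summed intensities at the probe sets of highest mean) was 10.9 in MET5, in a range of 9.84 to 10.9 in metastatic and 9.75 to 10.7 in non-metastatic tumours. Of the 8 adipocyte genes 3 (FABP4, LPL and ADIPOQ) were at least 1 log2 above the median in MET5. FABP4 was highest in MET2, at 11.87 against 11.69 in MET5, and LPL in NM6, at 9.47 against 8.85 in MET5. The summed signal of the adipocyte list was 12.3 in MET5, in a range of 9.79 to 12.3 in metastatic and 9.77 to 11.6 in non-metastatic tumours. Of the 9 smooth muscle genes 4 were at least 1 log2 above the median in MET5. Their summed signal was 13.4 in MET5, with ranges of 12.5 to 14.1 in metastatic and 11.5 to 14.0 in non-metastatic tumours. None of the marker genes was at 0 in any tumour, and the part of these cell types in the MET5 values was not tested.

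Markers of the remaining cell types did not single out MET5. None of the 7 endothelial, 5 nerve and Schwann cell, 6 macrophage or 7 fibroblast genes measured was at least 1 log2 above the median there, and 1 of 4 keratinocyte genes was. The fibroblast list, which marks the connective tissue of the labels, summed to 15.6 in MET5, with ranges of 14.6 to 15.7 in metastatic and 15.2 to 16.0 in non-metastatic tumours. Of its 18 probe sets 3 fell in metastatic tumours (16.7% passed, against 4.9% of all probe sets), those of the collagen-binding proteoglycan DCN and the surface protein THY1, and 0 rose. DCN fell by 1.28 and THY1 by 1.41 at the probe set of highest mean (limma adjusted p = 0.00429 and 0.0425), and within the spike-in set the values were 0.0346 and 0.133.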

How the data were processed

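Total RNA of 13 untreated primary tumours was purified on RNeasy columns, labelled by the 1-cycle 3′ in vitro transcription kit and hybridised to an Affymetrix canine array, per the labels' protocols. A single deposited table holds the authors' processed values, read here as log2 intensities because they run from 0 to 14.33. How they corrected background and normalized is not stated by any source used here. Of its 43035 probe sets, the 111 controls were kept out of the tests. Gene symbols came from the platform annotation, which named 1 gene for 29264 probe sets, more than 1 for 439 and no gene for 13332. Those with more than 1 gene were left unnamed. The gene identifiers of 61 of the 79 muscle probe sets were found in the RefSeq table of UU_Cfam_GSD_1.0, all with the same symbol. No sequence is printed and no motif was searched.

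Group differences came from limma 3.58.1 under R 4.3.3 (lmFit, eBayes, no covariate). Its two-sided p-values were adjusted by Benjamini-Hochberg over 42924 probe sets, with a threshold of 0.05. Differences are metastatic minus non-metastatic. The same code was first tested on simulated data. Spike-in sets were read from the control probe sets: an average 3′ signal of at least 6 and a 3′ minus 5′ gap under 2 counted as even signal. The exact permutation test of a single probe set enumerated all 1287 arrangements. Two-sided correlation tests were exact for n under 10 and used 100000 resamples otherwise (Python 3.11.15, numpy 2.4.6, pandas 2.3.3, scipy 1.17.1, matplotlib 3.10.9). The members and lists were chosen with earlier results of these data known. All 32 genes are named, with the 5 metastatic values and the range and median of the 8 non-metastatic values for genes whose probe set of highest mean spans at least 3 log2, for several fixed by name and for others at their widest probe set. Genes of other lists are named by smallest p or widest range, and others after their values were seen. The highest correlation between samples was 0.975, so none was taken for a repeat of another.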

Additional observations from a re-analysis of the deposited data

Results flagged for a closer look

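A total of 86 groups of values were tested for a sample far from the rest (each measured gene at its probe sets of highest mean and widest range, in each group), and 17 met the criterion. Chance gives about 1 in 20 for a single group at a probe set of highest mean, where 9 of 58 did. The 58 groups come from the same tumours, and many of the genes were high together in MET5. They are therefore not independent, and the 9 are not shown to exceed chance. The genes were also chosen with earlier results of these data known. The rate of 1 in 20 does not hold for the other 8, since the widest probe sets were chosen for their range after the values were seen. Of the 17, 15 were high values of MET5 in 13 genes. At the probe set of highest mean MET5 stood apart from the other metastatic tumours in MYBPC1 (7.78), MYH2 (9.28), MYL1 (9.49), MYL2 (10.10), MYLPF (10.25), TNNT1 (10.51) and TNNT3 (8.55). At the probe set of widest range it did so in CA3 (7.26), MYH1 (8.25), MYL1 (10.08), ACTA1 (11.63), TNNI2 (8.20), TNNT3 (9.06), ACTN2 (8.89) and TTN (9.05). The other metastatic tumours reached at most 4.94 in ACTA1, 4.86 in TNNT1 and 3.64 in TTN. In the non-metastatic group NM8 stood apart in MYH2 at 6.44, with the other 7 tumours at 3.32 to 4.45. NM1 stood apart in ENO3 at 8.74, with the other 7 tumours at 6.99 to 7.65.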

How the results depend on the processing

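The count of 0 called probe sets was also 0, over all tumours and within the spike-in set, with quantile normalization, a floor of 4, a filter at the median level, trend and robust eBayes, the mean of a gene's probe sets and the ACTB 3′ minus 5′ covariate. It was 0 over all tumours with the spike-in set as a block, the exact permutation test, and without both MET5 and NM8 (added after seeing the data). Leaving out 1 tumour at a time gave 0 to 1 calls over all tumours and 0 to 1 within the spike-in set. The first was a TTN probe set without NM2 (limma adjusted p = 0.0433), and the second TNNT1 without MET5 (limma adjusted p = 0.0478). The counts at an unadjusted p under 0.05 ran from 7 to 21 and from 1 to 8 in these fits. The share of all probe sets is given only for the fit over all tumours without MET5. The 2 single calls and the counts of the other fits therefore have no share to be set against. With the replicate number as a block over replicates 1 to 5 the count was 0, with 13 at the unadjusted threshold. It was 0 with 12 in the same tumours without the block, and the share of all probe sets is not given for either. The numbers did not pair the tumours: the correlation of same-numbered tumours was -0.01 to 0.08, and 1 of 5 correlated best with its own number. Of the 5 pairs with ACTA1 over all 13 tumours, 3 passed at the probe sets of highest mean and 0 at those of widest range, a choice added after seeing the data; within the spike-in set 2 and 1 passed. The 11 genes at least 1 log2 above their median in MET5 became 17 at the widest probe set. At the probe set of highest mean 21 genes lay above 7.16 in MET5, and from 6 (NM3) to 13 (NM7) did in each other tumour. The level of 7.16 is the highest value of spike-in probe sets in tumours without spike-in. Among single genes, 25 sign changes of uncalled differences in 12 genes arose over all tumours and 22 in 15 genes within the spike-in set, and the cause was not tested. The motif search was not run. Signal within the range of those probe sets, 2.63 to 7.16, is not told apart from that of probes without their target, which touches many of the lower values given.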
